A study of Mus musculus with 4 samples.

Results

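The genes described here encode inducible brakes on MAP kinase signalling: 6 MAP kinase phosphatase genes (Dusp1, Dusp2, Dusp4, Dusp5, Dusp6 and Dusp10) and 3 genes of the Sprouty and Spred families (Spry1, Spry2 and Spred2). These 9 genes of 18193 named on the array were taken by symbol from the platform annotation, chosen by name with their signals on these arrays known, so their values are descriptions and carry no test. They were read by 15 probe sets of 45037. Where a gene had several, the main one is the brightest by its mean deposited value. For Spred2 this mean was 5.91 log2 on the main probe set and 5.10 on the next.

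A signal from the T cell receptor passes through Ras and a chain of kinases to ERK, and parallel chains lead to the kinases JNK and p38. Dual-specificity phosphatases remove the phosphates that activate these kinases, and many are themselves transcribed in response to the signal, which makes them a negative feedback. Sprouty and Spred proteins act further upstream and limit activation of the Ras to ERK route. In the thymus the strength and duration of ERK signalling bear on positive and negative selection, and regulatory T cells are known to arise among thymocytes that receive strong receptor signals.

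The arrays were Affymetrix mouse 430 2.0 arrays, 1 per population, of CD4+ CD8- thymocytes from female mice of 6 to 8 weeks, isolated with magnetic beads and a flow cytometric sort. Foxp3-null cells are GFP+ cells of Foxp3(gfpko/wt) mice, heterozygous for an allele in which GFP marks a knocked-out Foxp3 gene, on a C57BL/6 background after 2 backcrosses from 129/Sv. Foxp3-fusion cells are GFP+ cells of Foxp3(gfp/gfp) mice, which make a GFP-Foxp3 fusion protein from the knocked-in allele, backcrossed 4 to 6 times. GFP- CD25+ and GFP- CD25- cells came from Foxp3(gfp/gfp) mice with the same backcross entry, and thus also carry the fusion allele without showing GFP. How many mice were behind each array is not stated in the labels. Genotype, backcross, mice and array cannot be told apart in any comparison with Foxp3-null cells. With 1 array per population no difference below has a replicate check or a p-value, and the small number of arrays sets the precision.

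Values are log2 signals after quantile normalization unless the deposited scale is named, and each level is compared with the same probe set on other arrays. Signals up to a floor of 3.87 log2, set from genes of other tissues, were treated as not measured. Of 27 such genes on the array, 2 to 3 exceeded the floor on each array. Among them, Myh6 read 5.95 log2 in Foxp3-null and 4.03 in Foxp3-fusion cells, 3.80-fold apart. Tnnt2 read 5.53 in Foxp3-fusion and 5.64 in GFP- CD25+ cells and was under the floor on the others. Member signals in this range, as of Dusp6 and Spred2 on some arrays, are thus less secure. Of all genes, 9220 exceeded the floor on at least 1 array. Foxp3, the sort gene, had a signal of 7.27 log2 in Foxp3-null and 8.82 in Foxp3-fusion cells, against 2.88 in GFP- CD25+ and 2.76 in GFP- CD25- cells. All 8 measured genes of the CD4 T cell list exceeded the floor on every array. Of the measured markers of other cells, 1 to 2 of 6 for B cells, 2 to 4 of 9 for dendritic cells and macrophages, 1 to 2 of 5 for NK cells, 2 of 7 for thymic epithelium and 0 of 3 for erythroid cells did so. Summed over the list, dendritic cell and macrophage signal was 8.02 log2 in Foxp3-null, 7.27 in Foxp3-fusion, 7.49 in GFP- CD25+ and 7.47 in GFP- CD25- cells, and its part in the differences below was not tested. Among the B cell genes, Cd79a and Pax5 were under the floor on the 4 arrays, whereas Ms4a1 read 5.63 log2 in Foxp3-null and 3.92 in Foxp3-fusion cells and was above the floor on each array, and Cd79b read 4.11 in Foxp3-fusion cells. The gap between 3' and 5' actin control probe sets, which widens as shorter products are made, was 7.10 log2 on the Foxp3-null array, 5.02 on the Foxp3-fusion array, 9.29 on the GFP- CD25+ array and 8.37 on the GFP- CD25- array. The part of this gap in them was not tested either. In a population of cells, more cells with a transcript and more transcript per cell cannot be told apart.

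Of the 9 genes, 7 exceeded the floor on at least 1 array and 6 on every array, and the measured genes did not share a pattern. Dusp2 and Dusp4 were highest in Foxp3-fusion cells, Dusp1 and Dusp5 in GFP- CD25+ cells, and Dusp6 and Spred2 in GFP- CD25- cells. Dusp10 varied least. With deposited values the highest array was another one for Dusp1 (Foxp3-fusion) and for Dusp10. Spry1 and Spry2 were under the floor on all 4 arrays.

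**Figure D1:**
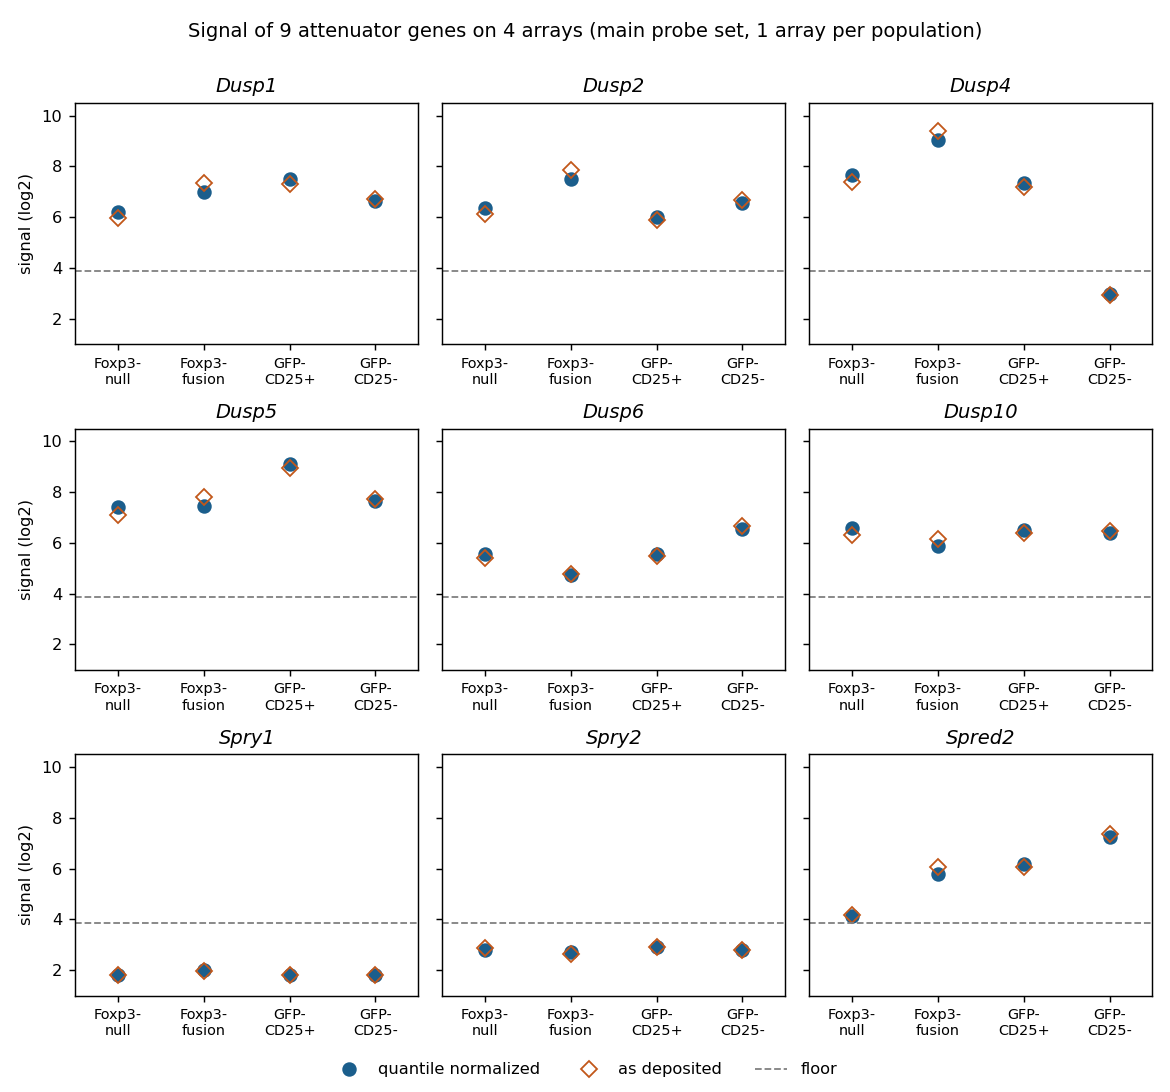
Signal in log2 of the main probe set of each of the 9 genes (vertical axes) on the 4 arrays (horizontal axes), with filled circles for quantile normalized values, open diamonds for deposited values and a dashed line at the floor of 3.87. Dusp4 lies under the floor on the GFP- CD25- array and reaches 9.04 on the Foxp3-fusion array, and Spry1 and Spry2 lie under the floor throughout.

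Dusp4 encodes a nuclear phosphatase of ERK and JNK that is induced by mitogens. Its signal was 7.67 log2 in Foxp3-null cells, 9.04 in Foxp3-fusion cells, 7.33 in GFP- CD25+ cells and 2.96 in GFP- CD25- cells. The signal was thus clearly present in the populations that were GFP+ or CD25+ and under the floor in cells with neither marker. Relative to GFP- CD25- cells, Dusp4 signal in Foxp3-null cells was higher by at least 13.9-fold, that in Foxp3-fusion cells by at least 36.0-fold and that in GFP- CD25+ cells by at least 11.0-fold. These 3 comparisons share the GFP- CD25- array. Between the GFP+ populations, Dusp4 was 2.58-fold lower in Foxp3-null than in Foxp3-fusion cells, and 4.00-fold lower with deposited values. Foxp3-null cells differed from GFP- CD25+ cells by 0.34 log2. The order of the 4 populations was that of Il2ra, the CD25 gene, which read 9.11, 10.35, 7.85 and 3.62 log2 in Foxp3-null, Foxp3-fusion, GFP- CD25+ and GFP- CD25- cells. Il2ra served to sort the GFP- cells.

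Dusp2 encodes a nuclear phosphatase first known from activated T cells, and it stood apart in a single population. Its signal was 6.37 log2 in Foxp3-null cells, 7.49 in Foxp3-fusion cells, 5.99 in GFP- CD25+ cells and 6.57 in GFP- CD25- cells. Foxp3-fusion cells were the high ones, and the other three lay within 0.58 log2 of each other. Dusp2 was 2.18-fold lower in Foxp3-null than in Foxp3-fusion cells, although centring each array on its median brought this difference to -0.99 log2. Foxp3-fusion cells exceeded GFP- CD25+ cells by 2.83-fold. Against GFP- CD25- cells the Foxp3-fusion value was 0.92 log2 higher, and 1.18 higher on the deposited scale. Foxp3-null and GFP- CD25+ cells, which were high for Dusp4, differed from GFP- CD25- cells in Dusp2 by -0.21 and -0.58 log2.

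Dusp5 encodes a nuclear phosphatase specific for ERK. Its signal was 7.41 log2 in Foxp3-null cells, 7.46 in Foxp3-fusion cells, 9.11 in GFP- CD25+ cells and 7.64 in GFP- CD25- cells. GFP- CD25+ cells alone were high, and the other populations lay within 0.24 log2 of each other. Dusp5 was 3.26-fold lower in Foxp3-null and 3.13-fold lower in Foxp3-fusion cells than in GFP- CD25+ cells. On the deposited scale the Foxp3-fusion value was 2.20-fold lower. It was 2.77-fold higher in GFP- CD25+ than in GFP- CD25- cells.

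Dusp1 encodes a nuclear phosphatase of p38, JNK and ERK, and its transcript is a classical immediate early response to signals and to stress. Its signal was 6.21 log2 in Foxp3-null cells, 6.997 in Foxp3-fusion cells, 7.48 in GFP- CD25+ cells and 6.62 in GFP- CD25- cells. Foxp3-null cells were the lowest, and the highest were GFP- CD25+ cells or, on the deposited scale, Foxp3-fusion cells at 7.35 against 7.32 in GFP- CD25+ cells. Dusp1 was 2.41-fold lower in Foxp3-null than in GFP- CD25+ cells. The difference of Foxp3-null from Foxp3-fusion cells was -0.79 log2, and -1.38 with deposited values. Fos, another immediate early gene, was under the floor in Foxp3-null cells at 3.64 log2 and read 4.91 in Foxp3-fusion, 5.07 in GFP- CD25+ and 4.78 in GFP- CD25- cells. Ier2, an immediate early gene too, went the other way and was 3.92-fold higher in Foxp3-null than in GFP- CD25+ cells. Genes of the dissociation and heat shock list, which can respond to cell handling, had a median difference of 0.17 log2 for Foxp3-null over GFP- CD25+ cells, with 1 of 10 measured genes at least 2-fold higher and 0 lower. For Foxp3-null over Foxp3-fusion cells their median was -0.13 log2 (-0.74 with deposited values), and Ier5 was 2.50-fold lower. The part of handling in the Dusp1 values was not tested.

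The promoters of Dusp1 and Dusp5 are shown because each held 1 kind of signal-response motif that few promoters hold. The motifs differ, and a link between motif and signal on the arrays was not tested. The window runs from 250 bases before to 50 bases after the gene's start, with sequence from RefSeq for build GRCm38.p6, and it was at hand for 8 of the 9 genes (not Dusp4). Dusp1 lies at chr17:26508423-26508722 on the minus strand, and the capitals mark a full cyclic AMP response element, TGACGTCA. Dusp5 lies at chr19:53528895-53529194 on the plus strand, and the capitals mark 2 CArG boxes, the motif of serum response factor, a transcription factor that acts with ERK-activated partners. Dusp6 lies at chr10:99262981-99263280 on the plus strand and is shown as an example with neither motif. The promoters of Dusp2, Dusp10, Spry1, Spry2 and Spred2 also held neither.
Dusp1: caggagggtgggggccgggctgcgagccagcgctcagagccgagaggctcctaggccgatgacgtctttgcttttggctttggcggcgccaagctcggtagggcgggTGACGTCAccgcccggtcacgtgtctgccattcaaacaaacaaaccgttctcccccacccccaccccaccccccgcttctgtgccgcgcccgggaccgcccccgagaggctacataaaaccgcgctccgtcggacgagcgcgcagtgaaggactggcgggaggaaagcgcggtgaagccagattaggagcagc
Dusp5: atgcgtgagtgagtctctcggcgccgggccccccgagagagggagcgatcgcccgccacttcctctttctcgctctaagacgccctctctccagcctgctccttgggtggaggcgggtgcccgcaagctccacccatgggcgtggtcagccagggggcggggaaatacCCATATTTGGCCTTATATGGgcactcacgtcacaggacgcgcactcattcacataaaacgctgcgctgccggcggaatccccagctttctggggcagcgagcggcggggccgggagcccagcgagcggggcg
Dusp6: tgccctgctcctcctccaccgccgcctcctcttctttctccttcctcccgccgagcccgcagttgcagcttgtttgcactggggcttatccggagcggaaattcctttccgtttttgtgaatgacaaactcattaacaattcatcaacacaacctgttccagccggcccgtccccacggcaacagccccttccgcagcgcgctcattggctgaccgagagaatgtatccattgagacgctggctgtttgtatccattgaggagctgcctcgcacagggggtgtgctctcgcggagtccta

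The cyclic AMP response element began 143 bases before the start of Dusp1. The CArG boxes began 82 and 72 bases before the start of Dusp5, 1 directly after the other. Searched on both strands, a full cyclic AMP response element occurred in 1.79% of 32851 RefSeq promoter windows of 300 bases, and a CArG box in 1.63%. Of the 8 promoters, 1 held each. The kappaB-like pattern GGGNNNNNCC matched in all 8, but also in 50.8% of all windows, and it overlaps the first CArG box of Dusp5. The AP-1 pattern TGANTCA, the ETS core CCGGAAG and the forkhead pattern TGTTTAC matched in none of the 8, against 7.81%, 8.86% and 3.65% of all windows. These matches describe letters in a window and not sites in use.

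Dusp6 encodes a cytoplasmic phosphatase specific for ERK and ran opposite to Dusp4. Its signal was 5.58 log2 in Foxp3-null cells, 4.72 in Foxp3-fusion cells, 5.57 in GFP- CD25+ cells and 6.56 in GFP- CD25- cells. GFP- CD25- cells were the highest and Foxp3-fusion cells the lowest, with the other two 0.01 log2 apart between them. Dusp6 was 3.59-fold lower in Foxp3-fusion than in GFP- CD25- cells. The differences of Foxp3-null and of GFP- CD25+ cells from GFP- CD25- cells were -0.988 and -0.997 log2, just short of 2-fold, and passed 2-fold on the deposited scale at -1.25 and -1.19. Foxp3-null exceeded Foxp3-fusion cells by 0.86 log2, or by 1.38 when arrays were centred on their medians. In GRCm38.p6 the span of Dusp6 overlaps that of 1 other annotated gene, Gm34921.

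Dusp10 encodes a phosphatase that prefers JNK and p38. Its signal was 6.60 log2 in Foxp3-null cells, 5.88 in Foxp3-fusion cells, 6.53 in GFP- CD25+ cells and 6.37 in GFP- CD25- cells. No pair of arrays reached 2-fold, and the range was 0.71 log2, or 0.31 with deposited values, on which the order of the other populations changed while Foxp3-fusion cells stayed lowest. Its second probe set was under the floor on the 4 arrays.

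Spred2 encodes a membrane-associated inhibitor of the Ras to ERK route. On its main probe set the signal was 4.12 log2 in Foxp3-null cells, 5.80 in Foxp3-fusion cells, 6.18 in GFP- CD25+ cells and 7.25 in GFP- CD25- cells. GFP- CD25- cells were the highest, and Foxp3-null cells were close to the floor. Relative to GFP- CD25- cells, Spred2 was 8.78-fold lower in Foxp3-null, 2.74-fold lower in Foxp3-fusion and 2.10-fold lower in GFP- CD25+ cells on this probe set. It was 3.21-fold lower in Foxp3-null than in Foxp3-fusion cells and 4.19-fold lower in Foxp3-null than in GFP- CD25+ cells.

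The 5 probe sets of Spred2 tell which of these differences recur. Probe set 1441802_at read 4.77 log2 in Foxp3-null, 4.64 in Foxp3-fusion, 4.77 in GFP- CD25+ and 6.16 in GFP- CD25- cells. Probe set 1434403_at read 3.30, under the floor, in Foxp3-null cells, 4.24 in Foxp3-fusion, 3.94 in GFP- CD25+ and 5.26 in GFP- CD25- cells. On these and on the main probe set, 3 in all, the highest array was that of GFP- CD25- cells. Relative to that array, 1441802_at was 2.63-fold lower in Foxp3-null, 2.87-fold in Foxp3-fusion and 2.61-fold in GFP- CD25+ cells. Likewise 1434403_at was 2.04-fold lower in Foxp3-fusion and 2.50-fold lower in GFP- CD25+ cells, and in Foxp3-null cells, where it was under the floor, its fold was no less than 2.63. The low value of Foxp3-null against Foxp3-fusion cells did not recur in size. It was 0.13 log2 upward on 1441802_at and at least 1.29-fold downward on 1434403_at. Nor did the low value of Foxp3-null against GFP- CD25+ cells, which was -0.009 log2 on 1441802_at and at least 1.05-fold downward on 1434403_at. Of the remaining probe sets, 1436892_at lay within 0.34 log2 over the arrays around the floor, and 1423001_at was under it on the 4 arrays. Of the 5, 1423001_at alone has a RefSeq mRNA as its annotated source. Which part of the transcript each probe set reads was not analysed here, nor whether the brighter ones read that mRNA.

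**Figure D2:**
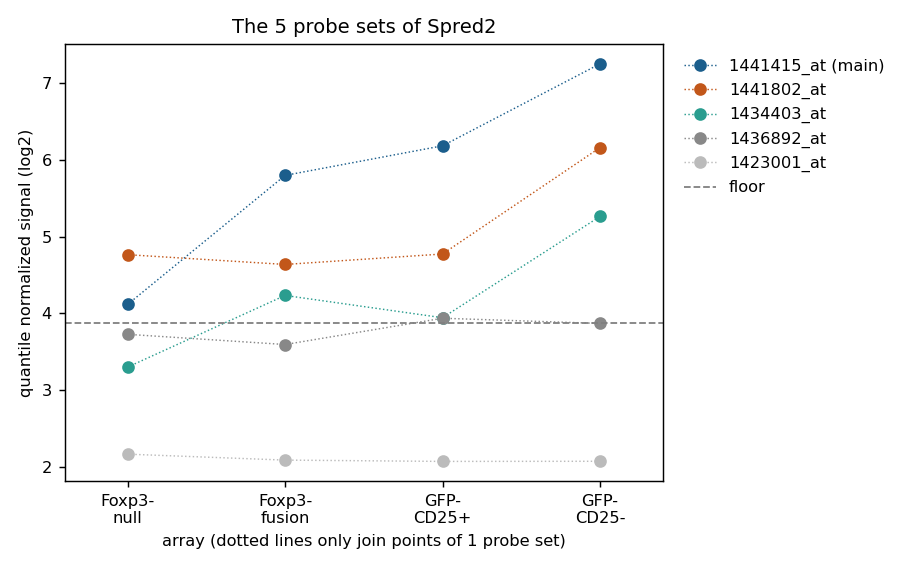
Quantile normalized signal in log2 (vertical axis) of the 5 Spred2 probe sets on the 4 arrays (horizontal axis), 1 colour per probe set, with a dashed line at the floor of 3.87. The 3 brightest are highest on the GFP- CD25- array, at 7.25, 6.16 and 5.26 log2, but they order the other arrays differently.

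Spry1 and Spry2, which encode Sprouty inhibitors of the Ras to ERK route, were not measured. Spry1, on 1 probe set, read 1.82 log2 in Foxp3-null, 2.02 in Foxp3-fusion, 1.81 in GFP- CD25+ and 1.80 in GFP- CD25- cells. Spry2 lay between 2.70 and 2.89 log2 on its main probe set and between 2.40 and 2.43 on the other. These signals are under the floor, so the arrays give no order among the populations for either gene, and low transcript cannot be told apart from probe sets that respond poorly.

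Counted by comparison, Foxp3-null cells had 0 genes 2-fold or more above and 3 below Foxp3-fusion cells among the 7 measured, namely Dusp2, Dusp4 and Spred2. Of 9023 genes measured in that pair, 9.53% were higher by this measure, 9.15% lower and 18.7% apart in either direction. Against GFP- CD25+ cells, Foxp3-null cells had 0 higher and 3 lower (Dusp1, Dusp5 and Spred2), where 8.24% of all genes were higher, 7.02% lower and 15.3% apart. Against GFP- CD25- cells they had 1 higher, Dusp4, and 1 lower, Spred2, with 10.4%, 7.16% and 17.6% over all genes. Foxp3-fusion over GFP- CD25+ cells gave 2 higher (Dusp2 and Dusp4) and 1 lower (Dusp5), beside 11.2%, 7.93% and 19.2%. Foxp3-fusion over GFP- CD25- cells gave 1 higher, Dusp4, and 2 lower (Dusp6 and Spred2), beside 9.64%, 5.06% and 14.7%. GFP- CD25+ over GFP- CD25- cells gave 2 higher (Dusp4 and Dusp5) and 1 lower, Spred2, beside 3.93%, 4.39% and 8.32%. Spred2 was counted on its main probe set. Its lower values in Foxp3-null than in Foxp3-fusion and GFP- CD25+ cells did not recur in size on its other probe sets. Because the genes were listed with these values known, nothing is read from how their counts compare with those shares.

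The median difference of the 7 genes was -0.79 log2 for Foxp3-null over Foxp3-fusion cells, where the median of all measured genes was 0.14. On the deposited scale these medians were -1.38 and -0.17. Relative to the median of all genes, Dusp4 was -1.51 in this comparison and -1.83 with deposited values, Dusp2 -1.27 and -1.57, and Spred2 -1.82 and -1.69. In the other 5 comparisons the members' median lay between -0.48 and 0.15 log2, and that of all genes between -0.09 and 0.18. Of 42 member differences, 17 were at least 2-fold on the normalized scale, and the same 17 plus 4 more on the deposited scale. A total of 6 had opposite signs on the scales, 0 of them 2-fold on either.

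**Figure D3:**
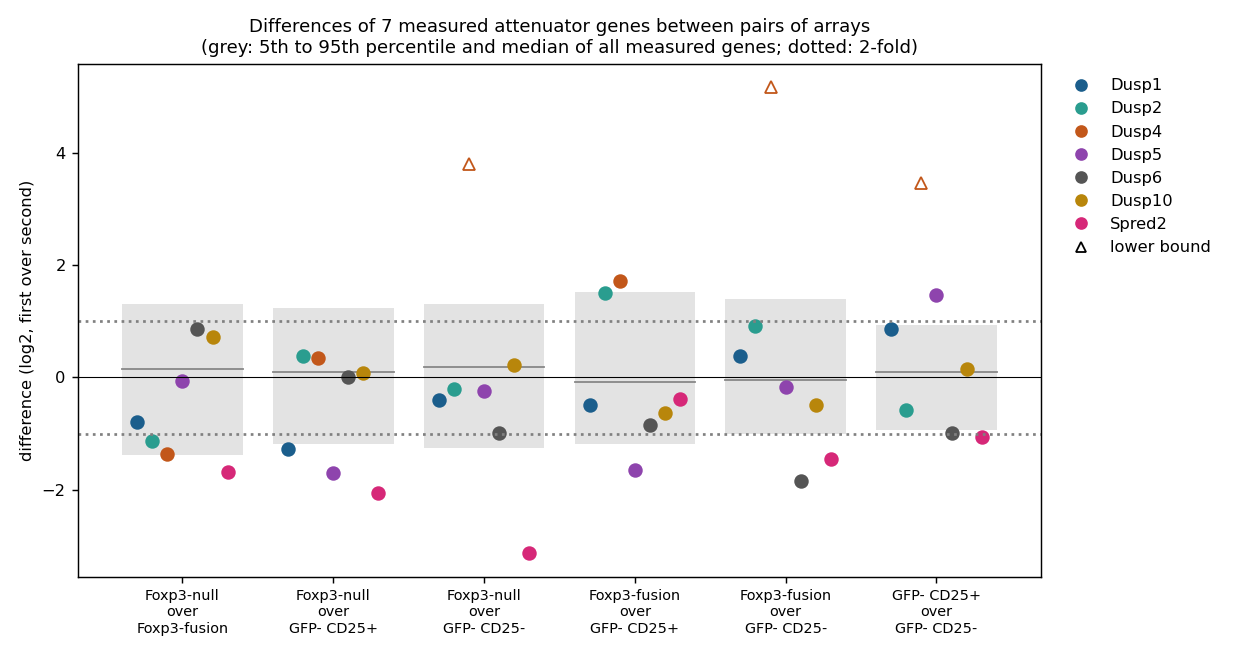
Log2 difference (vertical axis) of the 7 measured genes in each of the 6 pairs of arrays (horizontal axis), first population over second. Coloured circles are measured differences and open triangles lower bounds, grey bars span the 5th to 95th percentile of all measured genes with their median as a line, and dotted lines mark 2-fold. Dusp4 lies above the grey bar in the 3 comparisons with GFP- CD25- cells, at 3.80, 5.17 and 3.46 log2. It also lies above the bar in Foxp3-fusion over GFP- CD25+ cells, at 1.71 against a 95th percentile of 1.52. Spred2 lies below the bar in all comparisons except Foxp3-fusion over GFP- CD25+.

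Other genes of these families were mostly dim. Of 14 further dual-specificity phosphatase genes, 3 exceeded the floor. Dusp16, which encodes a phosphatase that prefers JNK, read 5.28 log2 in Foxp3-null, 4.47 in Foxp3-fusion, 6.18 in GFP- CD25+ and 5.13 in GFP- CD25- cells. GFP- CD25+ cells were thus highest for Dusp16, as for Dusp5, and the gene was 3.28-fold lower in Foxp3-fusion than in GFP- CD25+ cells. Dusp11, whose product acts on RNA, was 2.12-fold lower in Foxp3-null than in GFP- CD25- cells, and Dusp22 was under 2-fold in each pair. Of 4 further Sprouty and Spred genes, 2 exceeded the floor. Spry4, a Sprouty inhibitor, read 5.04 log2 in Foxp3-null cells, 3.62 (under the floor) in Foxp3-fusion, 4.59 in GFP- CD25+ and 4.11 in GFP- CD25- cells. Spry4 was at least 2.25-fold higher in Foxp3-null than in Foxp3-fusion cells. This difference is less secure, because Myh6, a gene of other tissues, had similarly low signals in the same order. Myh6 read 5.95 log2 in Foxp3-null, 4.03 in Foxp3-fusion, 4.70 in GFP- CD25+ and 4.43 in GFP- CD25- cells. Spred1, a relative of Spred2, was under 2-fold in each pair, with 6.88 log2 in Foxp3-null, 6.50 in Foxp3-fusion, 6.91 in GFP- CD25+ and 6.67 in GFP- CD25- cells.

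Upstream of the phosphatases, genes of Ras control and of the kinase chain were counted against GFP- CD25- cells, where 17.6% of all genes were at least 2-fold apart in Foxp3-null, 14.7% in Foxp3-fusion and 8.32% in GFP- CD25+ cells. The Ras list held Ras activators and inhibitors and also GTPases of the Ras family. Of its 11 measured genes, 0 were at least 2-fold apart in Foxp3-null cells and 0 in GFP- CD25+ cells, where deposited values gave 3 lower. In Foxp3-fusion cells 1 was, Rasgrp2, a Ras family activator, at 2.27-fold lower. Of the kinase cascade genes, 0 of 14 were 2-fold apart in Foxp3-null over GFP- CD25- cells. In Foxp3-fusion cells Map3k8, a kinase that feeds ERK, was at least 5.55-fold higher and Mapk11, a p38 gene, 2.32-fold lower, of 15. On the deposited scale Rasgrp2 and Mapk11 fell short of 2-fold, at -0.96 and -0.94 log2. In GFP- CD25+ cells Map2k1, which encodes the ERK kinase MEK1, was 2.48-fold lower, of 14. Map3k8 was above the floor only in Foxp3-fusion cells, at 6.34 log2, against 3.48 in Foxp3-null, 3.49 in GFP- CD25+ and 3.18 in GFP- CD25- cells.

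Relative to GFP- CD25+ cells, 15.3% of all genes were at least 2-fold apart in Foxp3-null and 19.2% in Foxp3-fusion cells. Of the 11 Ras list genes, 4 showed 2-fold or more in Foxp3-null cells, all upward. Among them were Rras2, a Ras-related GTPase, at 2.78-fold and Rasgrp1, the Ras activator of T cell receptor signalling, at 2.11-fold. In Foxp3-fusion cells 3 of 11 were higher, with Rras2 at 2.64-fold, and 0 were lower in either comparison. With deposited values 3 of 11 were higher in Foxp3-null and 4 of 11 in Foxp3-fusion cells. On that scale Rasgrp1 was 0.91 log2 higher in Foxp3-null and 1.21 higher in Foxp3-fusion cells. Both comparisons share the GFP- CD25+ array, on which Rras2 read 6.68 and Map2k1 4.48 log2. Map2k1 was 2.41-fold higher in Foxp3-null and 3.21-fold higher in Foxp3-fusion than in GFP- CD25+ cells. Of the cascade genes, 2 of 14 were higher and 0 lower in Foxp3-null cells, and 2 of 15 higher and 2 lower in Foxp3-fusion cells. The lower ones were Braf, a kinase upstream of ERK, at 2.14-fold and Mapk11 at 2.03-fold, both under 2-fold with deposited values. Median differences of the Ras list were 0.87 log2 for Foxp3-null and 0.30 for Foxp3-fusion over GFP- CD25+ cells, against 0.09 and -0.09 over all genes. On the deposited scale they were 0.77 and 0.82, against 0.01 and 0.13. Comparing Foxp3-null with Foxp3-fusion cells, 2 of 11 Ras list genes and 2 of 15 cascade genes were at least 2-fold higher and 0 and 1 lower. With deposited values 0 were higher in either list. The lower one was Map3k8.

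Genes that respond to ERK signalling are given beside the shares of all genes. Of 14 measured, 3 were at least 2-fold higher and 1 lower in Foxp3-fusion than in GFP- CD25- cells, with a median of 0.04 log2, where 9.64% of all genes were higher and 5.06% lower. In Foxp3-null cells 2 of 13 were higher and 0 lower than in GFP- CD25- cells, with a median of 0.13, but 1 was higher and 2 lower with deposited values, and the shares of all genes were 10.4% and 7.16%. Likewise in GFP- CD25+ cells 3 of 13 were higher and 2 lower, with a median of 0.29, beside 3.93% and 4.39% of all genes. Each of these populations exceeded GFP- CD25- cells in the orphan nuclear receptor gene Nr4a3, Foxp3-null cells by 5.89-fold, Foxp3-fusion cells by 4.43-fold and GFP- CD25+ cells by 3.65-fold. Its signal was 10.37 log2 in Foxp3-null, 9.96 in Foxp3-fusion, 9.68 in GFP- CD25+ and 7.82 in GFP- CD25- cells. GFP- CD25- cells were thus the lowest for Nr4a3, as for Dusp4, and the order of the GFP+ populations turned with the scale: Foxp3-null over Foxp3-fusion was 0.41 log2, but -0.19 with deposited values. Phlda1 and Nr4a2, like Dusp5, were highest in GFP- CD25+ cells, where they were 2.65-fold and 4.81-fold higher than in GFP- CD25- cells. The 2 lower genes in that comparison went the other way, Cd69 at 2.88-fold and Ier2 at 2.68-fold lower in GFP- CD25+ cells. Egr1, an early growth response gene, was highest in GFP- CD25- cells, as Dusp6 was. It was 2.06-fold lower in Foxp3-fusion than in GFP- CD25- cells, or -0.75 log2 on the deposited scale, on which Foxp3-fusion cells were no longer the lowest: the differences from GFP- CD25- cells were -1.02 in Foxp3-null and -1.14 in GFP- CD25+ cells. For Foxp3-null over Foxp3-fusion cells, 1 of 14 was higher, Nr4a2 at 2.46-fold, and 2 were lower, Fos and Myc, with Myc at 3.10-fold. The median was 0.31 log2, and 9.53% of all genes were higher and 9.15% lower. With deposited values 0 of 13 were higher and 3 lower, with a median of -0.28.

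**Figure D4:**
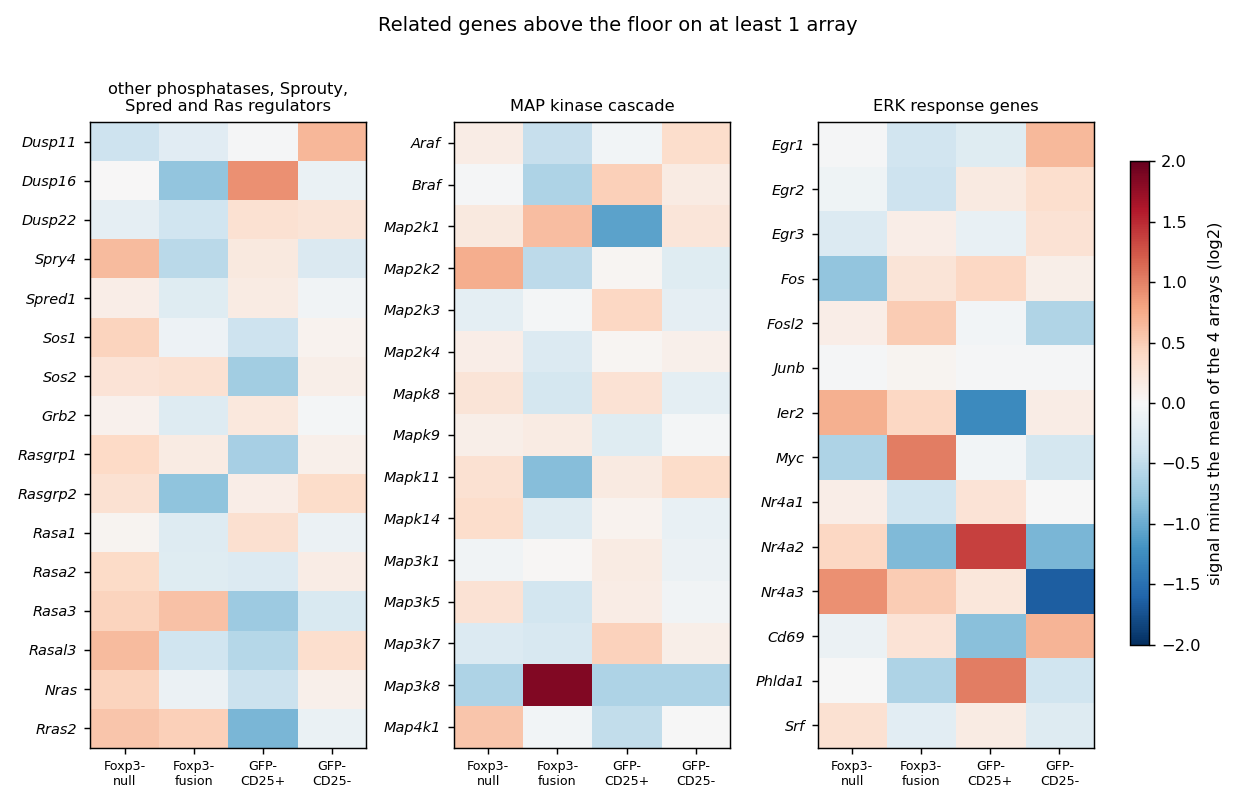
Signal minus the mean of the 4 arrays in log2 (colour, red above and blue below the mean) for related genes above the floor on at least 1 array (rows), on the 4 arrays (columns), with values under the floor set to it. Map3k8 is raised on the Foxp3-fusion array, Nr4a2, Phlda1 and Dusp16 on the GFP- CD25+ array, and Nr4a3 is lowest on the GFP- CD25- array.

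The genes whose profile over the 4 arrays lay nearest to those of the most variable members were found among 3554 genes with a range of at least 1 log2, by the Euclidean distance of centred profiles. Nearest to Dusp4 were Plagl1 at a distance of 0.42, Rgs1 at 0.92 and Tiam1 at 0.95. Plagl1, a zinc finger gene, read 9.45 log2 in Foxp3-null, 10.89 in Foxp3-fusion, 9.45 in GFP- CD25+ and 5.40 in GFP- CD25- cells. Nearest to Spred2 were Tcf20 at 0.26, Cux1 at 0.26 and Selenoi at 0.28, and nearest to Dusp6 were Trip6 at 0.16, Tmod3 at 0.27 and Trmt13 at 0.27. With 4 arrays such likeness is a description of these arrays.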

How the data were processed

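RNA of sorted thymocytes was amplified in 2 rounds to biotinylated cRNA and hybridized to Affymetrix arrays, per the labels' protocols. The deposited values, 1 for each probe set on each array, are taken as log2, a base inferred from their range. The authors' background correction, summarisation and normalization are not given in the sources used here. Because the 90th percentiles of the deposited values ran from 7.54 to 8.16 over the arrays, the log2 values were quantile normalized with Python 3.11.15, numpy 2.4.6 and pandas 2.3.3, after 64 control probe sets of 45101 were left out. Groups came from the sample titles; the description field of the Foxp3-null sample speaks of gfp/gfp mice, against its title and strain entry.

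Gene names came from the platform annotation. Of the probe sets, 34945 had 1 gene, 932 had several and 9160 had none listed. Of the 34945, 34741 were found by gene identifier in the RefSeq table of GRCm38.p6, and 0 symbols changed. The main probe set was chosen on deposited values. For the floor, the 90th percentile over 47 probe sets of genes of other tissues was taken on each array, and the highest of the 4 was used, 3.87 log2 (deposited scale, 3.92). Values below it were raised to it. A difference with 1 side there is a lower bound ("at least"), and with both sides there no difference is given. A 2-fold difference was counted. No significance test was made with 1 array per group. Members and lists were chosen with earlier results of these data known. All members are named, with examples from the list genes at least 2-fold apart and, for the 3 members of widest range, the 3 nearest profiles. The counting was checked on simulated data.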

Additional observations from a re-analysis of the deposited data

How the results depend on the processing

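No paired analysis was possible because each population had 1 array. The alternatives were deposited values, centring each array on its median above the floor, no floor, raising the floor by 1 log2 unit, taking the median of a gene's probe sets, dropping probe sets whose identifiers mark several transcripts, and a 3-fold threshold. No member difference of at least 2-fold changed sign under any of these that gave it a value. The number of members at least 2-fold apart stayed within 1.5 times under each alternative other than the 3-fold threshold. At 3-fold it was 1 in place of 3 for Foxp3-null over Foxp3-fusion cells (Spred2) and 1 in place of 3 for GFP- CD25+ over GFP- CD25- cells (Dusp4). With centring, the total for Foxp3-null over Foxp3-fusion cells stayed 3, but its split was 1 higher and 2 lower in place of 0 and 3. There Dusp6 passed 2-fold upward at 1.38 log2, and Dusp2 fell short at -0.99. Single values moved by over 1.5-fold for Dusp4 with the floor, for Dusp1, Dusp2, Dusp4 and Dusp5 between Foxp3-null and Foxp3-fusion cells with deposited values, and for Spred2 with a higher floor or the median over its probe sets. With that median the Spred2 difference of Foxp3-null from Foxp3-fusion cells was -0.36 log2 and that from GFP- CD25+ cells -0.07. Over all genes, the numbers at least 2-fold apart for Foxp3-null over Foxp3-fusion, GFP- CD25+ and GFP- CD25- cells were 1686, 1348 and 1556. They became 1018, 839 and 908 with the median over probe sets and 544, 441 and 503 at 3-fold. For Foxp3-fusion over GFP- CD25+ and GFP- CD25- cells they were 1692 and 1275, and became 1048 and 841 with that median and 576 and 441 at 3-fold. For GFP- CD25+ over GFP- CD25- cells 717 became 451 and 212. The 3-fold counts are lower by construction; the cause of the lower counts with the median was not tested. The split of all genes moved with the scale: for Foxp3-null over Foxp3-fusion cells 860 were higher and 826 lower, against 418 and 1672 with deposited values.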
